A study of Mus musculus with 6 samples.

Results

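Heat shock proteins of the cytosol, the endoplasmic reticulum (ER) and the mitochondria were compared between sorted CD4+CD8+ double positive (DP) thymocytes of WT and NSrp70-cKO mice. The genes were the rows of the expression files with 1 of 10 chosen symbols, out of 23183 symbols in all: Hspa8, Hsph1, Dnaja1, Hsp90aa1 and Hsp90ab1 for the cytosol, Hspa5 and Hsp90b1 for the ER, and Hspa9, Hspd1 and Hspe1 for the mitochondria. Each of the 10 symbols was found in every library. The WT group was 3 libraries of Nsrp1 f/f mice, which carry the floxed gene without a Cre, and the cKO group was 3 libraries of Nsrp1 f/f mice with CD4Cre, all of them C57BL/6 and 6 weeks old. CD4Cre deletes a floxed gene in T lineage cells only, from the late double negative to the DP stage, so the gene is intact in the other cells of the thymus. Nsrp1 encodes NSrp70, a nuclear speckle protein that regulates alternative splicing. Nothing in the labels or methods says that the 3 libraries of a genotype came from separate mice, so p-values measure only the spread between these libraries, which may be technical.

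Chaperones help proteins to fold, to cross membranes and to be taken apart when damaged, and each compartment has its own set. Hspa8 (HSC70) is the constitutive HSP70 of the cytosol, Dnaja1 is a J-domain cochaperone that brings it clients, and Hsph1 (HSP110) is a nucleotide exchange factor that releases them, while Hsp90aa1 and Hsp90ab1 are the stress-inducible and the constitutive HSP90. Hspa5 (BiP) and Hsp90b1 (GRP94) are the HSP70 and the HSP90 of the ER, and their promoters respond to unfolded protein in the ER. Hspa9 (mortalin) is the HSP70 of the mitochondrial matrix, which pulls in imported proteins, and Hspd1 (HSP60) and Hspe1 (HSP10) are the barrel and the lid of the mitochondrial chaperonin. Heat shock factor 1, encoded by Hsf1, drives many cytosolic and mitochondrial chaperone genes by binding heat shock elements.

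On GRCm38, the assembly of mm10, the genes lie apart from each other except for Hspd1 and Hspe1. Hspa8 is annotated at chr9:40800984-40810087, Hsph1 at chr5:149614287-149636376, Dnaja1 at chr4:40722150-40737149, Hsp90aa1 at chr12:110690605-110702728, Hsp90ab1 at chr17:45567775-45573271, Hspa5 at chr2:34771970-34777547 and Hsp90b1 at chr10:86690209-86705509. Hspd1 at chr1:55077835-55088243 on the minus strand and Hspe1 at chr1:55088132-55091307 on the plus strand stand head to head, and their annotations overlap by 112 bases. The library kit was directional but the strand setting of the counting is not stated, so fragments in these 112 bases cannot be told apart between the 2 genes. GENCODE also holds 5 pseudogenes named after Hspd1, 6 named after Hspe1 and 1 each named after Hspa9 and Dnaja1, and fragments of such near-identical copies may be split between them and the parent gene.

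The promoters bear on which genes share regulatory letters. RefSeq promoters on GRCm38.p6, from 250 bases before to 50 after a start site, were at hand for 6 of the 10 genes: Hsph1, Dnaja1, Hspa5, Hsp90b1, Hspd1 and Hspe1. They were searched on both strands for a heat shock element of 3 alternating units, spelled GAANNTTCNNGAA, and for the ER stress response element, spelled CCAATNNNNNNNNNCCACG. The first was present in 198 of 32851 promoters (0.603%) and the second in 39 (0.119%). The windows with a match are given 5′ to 3′ on the strand of the gene, with the fixed letters of the motif in capitals, because they separate the ER pair from the mitochondrial pair.
Hspa5: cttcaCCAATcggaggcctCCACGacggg
Hsp90b1 upstream: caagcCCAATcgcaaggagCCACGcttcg
Hsp90b1 downstream: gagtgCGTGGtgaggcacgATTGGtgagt
Hspe1: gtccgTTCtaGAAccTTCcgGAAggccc
Hspd1: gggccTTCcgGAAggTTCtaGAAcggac
Hsph1: gcagaTTCtgGAAagTTCtcctc

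The ER stress response element was matched once in Hspa5, at bases -65 to -47 from the start site (window chr2:34772020-34772048, plus strand). It was matched at 2 places in Hsp90b1, at -212 to -194 (chr10:86705633-86705661, minus strand) and, on the other strand, at -107 to -89 (chr10:86705528-86705556). The windows of Hspe1 and of 1 of the 2 Hspd1 promoters overlap by 285 bases, and both held the same run of 4 alternating units, in which the heat shock element overlaps itself in 2 matches, at -89 to -72 of Hspe1 and at -144 to -127 of Hspd1 (chr1:55088054-55088081). Hsph1 had a match after its start site, at 16 to 28 (chr5:149636283-149636305, minus strand), and the same letters lie at 37 to 49 of its other annotated start. None of the 3 Dnaja1 promoters held either spelling. A match is a description of the letters and not of binding.

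**Figure D1:**
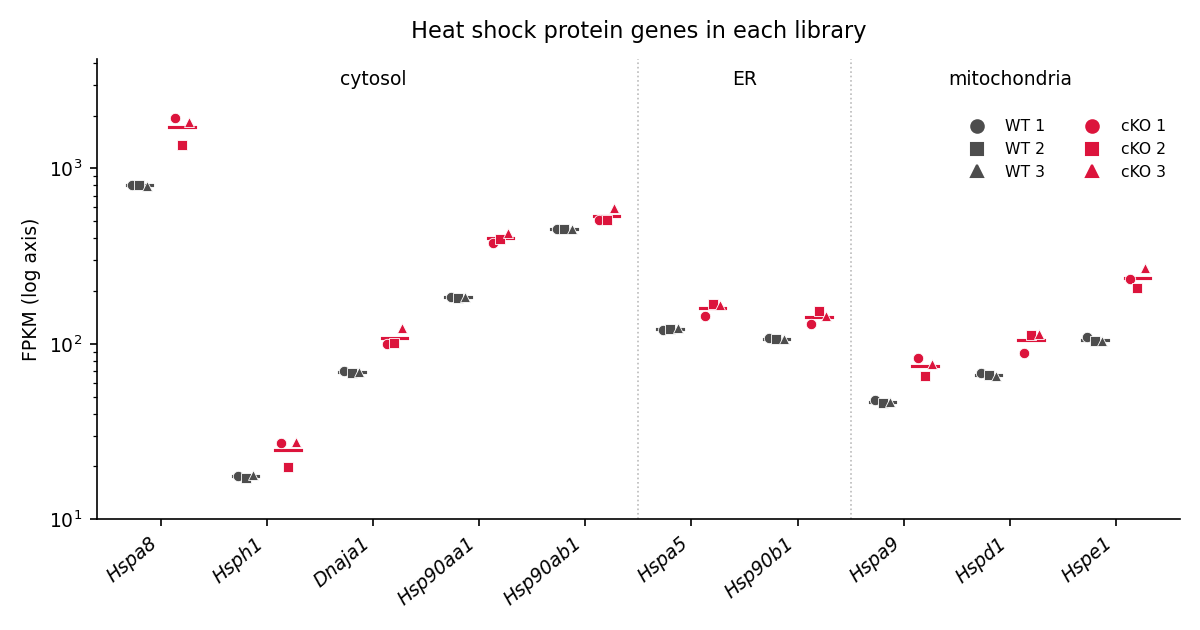
FPKM (log axis) of the 10 genes in each library, grouped by compartment, with WT in grey and cKO in red, libraries 1, 2 and 3 as circles, squares and triangles, and the group mean as a bar. The WT points lie on each other, the cKO points spread more, and for every gene the 3 cKO values as deposited lie above the 3 WT values.

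FPKM (a fragment count divided by transcript length and by library depth) is scaled by transcript length, so levels can be set beside each other between genes. In WT libraries, Hspa8 had the highest level of the 10, followed by Hsp90ab1, Hsp90aa1 and Hspa5. Hsp90b1 and Hspe1 came next with overlapping ranges, of 106 to 108 and of 104 to 109 FPKM, and then Dnaja1, Hspd1, Hspa9 and Hsph1, each separate from its neighbours. Over all libraries, Hspa8 ranked 87th of the 23183 symbols by mean FPKM and Hsph1, the lowest, ranked 4111th. In cKO libraries the order of the first 3 was the same, but Hspe1 came next, above Hspa5 and Hsp90b1, whose ranges overlapped, as did those of Dnaja1 and Hspd1. Summed over the 10 genes, the level was 1969 to 1978 FPKM in WT and 3632, 3098 and 3771 FPKM in cKO 1, 2 and 3. Hspa8 alone held 40.5% to 40.9% of this sum in WT and 53.5%, 44.1% and 48.5% of it in cKO 1, 2 and 3.

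A few facts of the libraries touch every comparison. Library totals were 521296 to 531517 FPKM in WT and 701396 to 850548 FPKM in cKO, so the same FPKM is a smaller share of a cKO library: the 10 genes held 0.372% to 0.378% of the total in WT and 0.442% to 0.459% in cKO. The depth, estimated from the steps of 1 fragment in low values, was 20.3 to 20.6 M fragments (M, mega) in WT and 13.1, 20.5 and 17.3 M in cKO 1, 2 and 3. At that depth the smallest value of any of the 10 genes, that of Hsph1 in WT 2, stood for about 1599 fragments, a counting error of 2.50%. The squared difference between 2 WT libraries was on average 1.49 to 1.59 times that of counting noise (mean chi-square per gene). Between 2 cKO libraries it was 32.2 to 72.7 times. By the median gene, relative to the median under counting noise, it was 1.27 to 1.32 times in WT and 5.41 to 11.4 times in cKO. Nsrp1, listed under its older symbol Ccdc55, was at 20.2, 20.7 and 21.1 FPKM in WT and at 17.7, 15.8 and 15.0 FPKM in cKO. The cKO level was 0.34 lower on the log2 scale (-0.34, adjusted p = 0.00675, limma). These are mRNA values over the whole gene. For the protein, the paper reports a significant reduction in cKO thymocytes by western blot. Because the WT libraries varied so little, each test was repeated with their mean as a single WT sample, which gave Ccdc55 an adjusted p of 0.184. Further, 4 genes of chromosome Y were at 0 in every WT library and between 5.83 and 43.8 FPKM in the cKO libraries, so the genotype and the sex of the mice cannot be told apart.

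The question of the design is how the loss of NSrp70 changes gene expression in DP thymocytes. Chaperone mRNAs of all 3 compartments were higher in cKO than in WT libraries: 9 of the 10 genes passed an adjusted p of 0.05 upward and 0 downward, although Hsp90ab1 was lower after quantile normalization and 4 of the 10 were below 0 with equal library totals. The tests were made with limma on log2(FPKM + 1) over the 10326 genes that reached an FPKM of 1 in 3 libraries or more, all 10 genes among them, and over all these genes 35.8% were called higher and 29.8% lower. In all 10 genes the 3 cKO values lay above the 3 WT values, which held for 39.2% of all genes tested. The median log2 fold change was 0.63 over the 10 genes and 0.039 over all genes tested. The coefficient of variation (CV) between WT libraries was 0.219% to 2.45% (median 1.12%), and between cKO libraries it was 6.49% to 17.8% (median 12.1%).

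The largest differences in level were in the cytosolic HSP70. Hspa8 was at 801, 806 and 798 FPKM in WT and at 1942, 1366 and 1827 FPKM in cKO 1, 2 and 3. Its lowest cKO value was far above the WT values, and the spread within cKO was the widest of the 10 genes. On the log2(FPKM + 1) scale the difference was 1.08 (SE 0.156, 95% confidence interval 0.71 to 1.44, adjusted p = 0.00103, limma), a 2.13-fold ratio of the means and the 97.1st percentile of all genes tested. With a single WT sample the adjusted p was 0.0799, and the log2 fold change was 0.32 after quantile normalization.

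The cochaperones that work with Hspa8 had smaller log2 fold changes than Hspa8, but not after quantile normalization (0.34 for Dnaja1 and 0.42 for Hsph1, against 0.32 for Hspa8). Dnaja1, a J-domain protein, was at 69.6, 68.2 and 69.5 FPKM in WT and at 99.2, 102 and 123 FPKM in cKO, a log2 fold change of 0.63 (SE 0.094, adjusted p = 0.00118, limma). Hsph1, the exchange factor, was at 17.7, 17.2 and 17.8 FPKM in WT and at 27.2, 19.9 and 27.4 FPKM in cKO. Libraries cKO 1 and 3 were close to each other for Hsph1, and cKO 2 lay nearer to WT. The log2 fold change of Hsph1 was 0.46 (SE 0.127, adjusted p = 0.0152, limma), and without cKO replicate 3 it was 0.38 with an adjusted p of 0.0611, above the threshold of 0.05. The ratio of Hsph1 to Hspa8 within a library was 0.0221, 0.0214 and 0.0223 in WT and 0.0140, 0.0146 and 0.0150 in cKO, lower in each cKO library as deposited, while the difference in the log2 ratio was 0.11, in the other direction, after quantile normalization.

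The 2 cytosolic HSP90 genes differed from each other. Hsp90aa1, the inducible form, was at 184, 182 and 185 FPKM in WT and at 375, 397 and 427 FPKM in cKO, with the smallest CV of the 10 genes in cKO (6.49%). Its log2 fold change was 1.11 (SE 0.079, 95% confidence interval 0.93 to 1.30, adjusted p = 0.000118, limma), at the 97.6th percentile. Hsp90ab1, the constitutive form, was at 452, 454 and 453 FPKM in WT and at 508, 507 and 595 FPKM in cKO. All 3 cKO values of Hsp90ab1 were above WT, but cKO 3 stood apart from the other 2, and the log2 fold change of 0.24 (SE 0.097, 95% confidence interval 0.009 to 0.47) had an adjusted p of 0.0642 in limma. It passed the threshold without cKO replicate 2 (0.29, adjusted p = 0.0122). It also passed with eBayes without a trend (adjusted p = 0.0397) and with array weights by genotype (adjusted p = 0.0337), both in limma. Quantile normalization turned it to -0.38 (adjusted p = 0.00102). The ratio of Hsp90aa1 to Hsp90ab1 was 0.407, 0.400 and 0.409 in WT and 0.738, 0.782 and 0.717 in cKO, a difference of 0.88 in the log2 ratio. The SD of this log2 ratio was 0.017 in WT and 0.064 in cKO.

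The ER pair rose by smaller amounts than most of the cytosolic and mitochondrial genes. Hspa5, the HSP70 of the ER lumen, was at 120, 122 and 123 FPKM in WT and at 145, 168 and 168 FPKM in cKO, a log2 fold change of 0.39 (SE 0.079, adjusted p = 0.00424, limma). Hsp90b1, its HSP90 partner, was at 108, 106 and 106 FPKM in WT and at 130, 154 and 143 FPKM in cKO, a log2 fold change of 0.41 (SE 0.078, adjusted p = 0.00324, limma). In both genes cKO 1 had the lowest cKO value, still above every WT value. The profiles of Hspa5 and Hsp90b1 over the 6 libraries were the closest of the 45 pairs among the 10 genes, with a root-mean-square (RMS) distance of 0.035 between centred log2(FPKM + 1) values. The next closest pair, Hsp90aa1 and Hspe1, had a distance of 0.092, and the farthest, Hsp90ab1 and Hspe1, of 0.46. Outside the 10 genes, Smc6, Pak1ip1 and Zfp595 were nearer to Hspa5 (0.020 to 0.023) than Hsp90b1 was. Hspa5 and Hsp90b1 are also the genes, of the 6 with a promoter here, that held the ER stress response element. The part of this element in their profiles was not tested. The size of their difference depends on the scaling: the log2 fold changes were 0.0022 for Hspa5 and 0.045 for Hsp90b1 after quantile normalization and -0.17 and -0.15 with equal library totals, none of them past the threshold.

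The 3 mitochondrial genes all rose, Hspe1 the most as deposited, whereas after the GC content and length correction Hspa9 (0.52) was above Hspe1 (0.45). Hspa9, the import motor, was at 47.9, 46.0 and 46.8 FPKM in WT and at 83.3, 65.6 and 76.7 FPKM in cKO, a log2 fold change of 0.66 (SE 0.098, adjusted p = 0.00112, limma). Hspd1, the barrel of the chaperonin, was at 68.0, 66.1 and 65.5 FPKM in WT and at 88.4, 112 and 113 FPKM in cKO, a log2 fold change of 0.63 (SE 0.103, adjusted p = 0.00163, limma). Hspe1, its lid, was at 109, 104 and 104 FPKM in WT and at 235, 208 and 270 FPKM in cKO. The 1.15 log2 fold change of Hspe1 (SE 0.106, 95% confidence interval 0.90 to 1.40, adjusted p = 0.000222, limma) was the largest of the 10 genes, at the 98.0th percentile of all genes tested. The cKO libraries did not order the 3 genes alike, since cKO 1 was the highest for Hspa9 and the lowest for Hspd1.

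Hspd1 and Hspe1, which share the stretch between their start sites, did not change in step as deposited. The ratio of Hspd1 to Hspe1 was 0.625, 0.633 and 0.628 in WT and 0.377, 0.539 and 0.419 in cKO, a difference of -0.52 in the log2 ratio. After a correction of each library for GC content and transcript length, the log2 fold change was 0.43 for Hspd1 and 0.45 for Hspe1, both still past the threshold, and the difference in their log2 ratio was -0.015. The correction left the other log2 fold changes between 0.16 (Hsp90b1) and 0.95 (Hspa8), and 8 of the 10 genes were called higher, where 32.8% of all genes were. Hsp90b1, at an adjusted p of 0.0649, and Hsp90ab1, at 0.13, were not called with it.

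**Figure D2:**
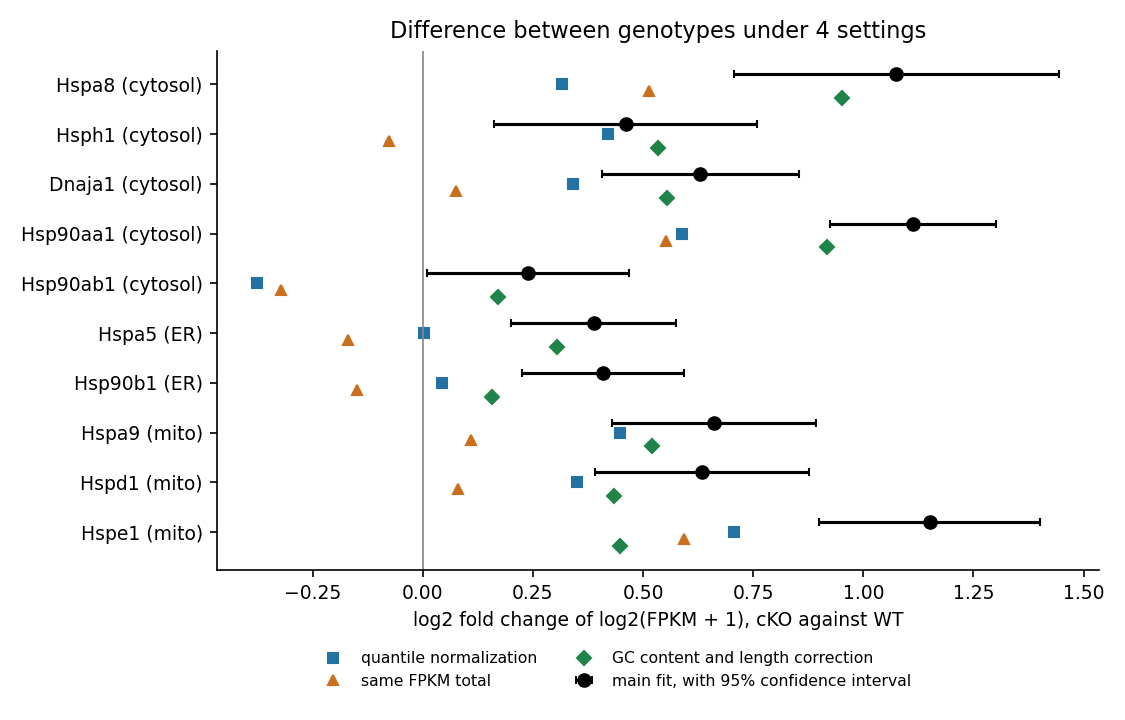
Log2 fold change of log2(FPKM + 1), cKO against WT, of the 10 genes: black circles with bars are the limma estimate and its 95% confidence interval, and coloured symbols the estimate after quantile normalization, scaling to the same FPKM total, or correction for GC content and length. Hsp90ab1 lies below 0 after quantile normalization and after scaling to the same total, and Hsph1, Hspa5 and Hsp90b1 lie below 0 after scaling to the same total.

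Scaling changed the counts. When each library was set to 1 common FPKM total, the median log2 fold change of all genes moved from 0.039 to -0.45, 8.74% of all genes were called higher and 59.9% lower. There Hspa8 (0.51), Hsp90aa1 (0.55) and Hspe1 (0.59) were called higher, Hsp90ab1 was called lower (-0.32, adjusted p = 0.00566), and Hsph1, Hspa5 and Hsp90b1 were at -0.076, -0.17 and -0.15 without a call. Relative to the median of all genes under that scaling, all 10 genes were above it, from 0.13 for Hsp90ab1 to 1.04 for Hspe1. After quantile normalization 33.7% of all genes were called higher and 29.4% lower, and 7 of the 10 genes were called higher and Hsp90ab1 lower. Counting the WT libraries as 1 sample, 7.21% of all genes were called higher and 8.73% were called lower, and of the 10 genes only Hsp90aa1 (adjusted p = 0.0344) and Hspe1 (adjusted p = 0.0336) passed.

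By compartment, the median log2 fold change was 0.63 over the 5 cytosolic genes, 0.40 over the 2 ER genes and 0.66 over the 3 mitochondrial genes. The ER had the lowest median also after quantile normalization (0.34, 0.023 and 0.45 in the same order), after scaling to the same total (0.075, -0.16 and 0.11) and after the GC content and length correction (0.55, 0.23 and 0.45). With 2 to 5 genes a compartment these medians are descriptions only.

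**Figure D3:**
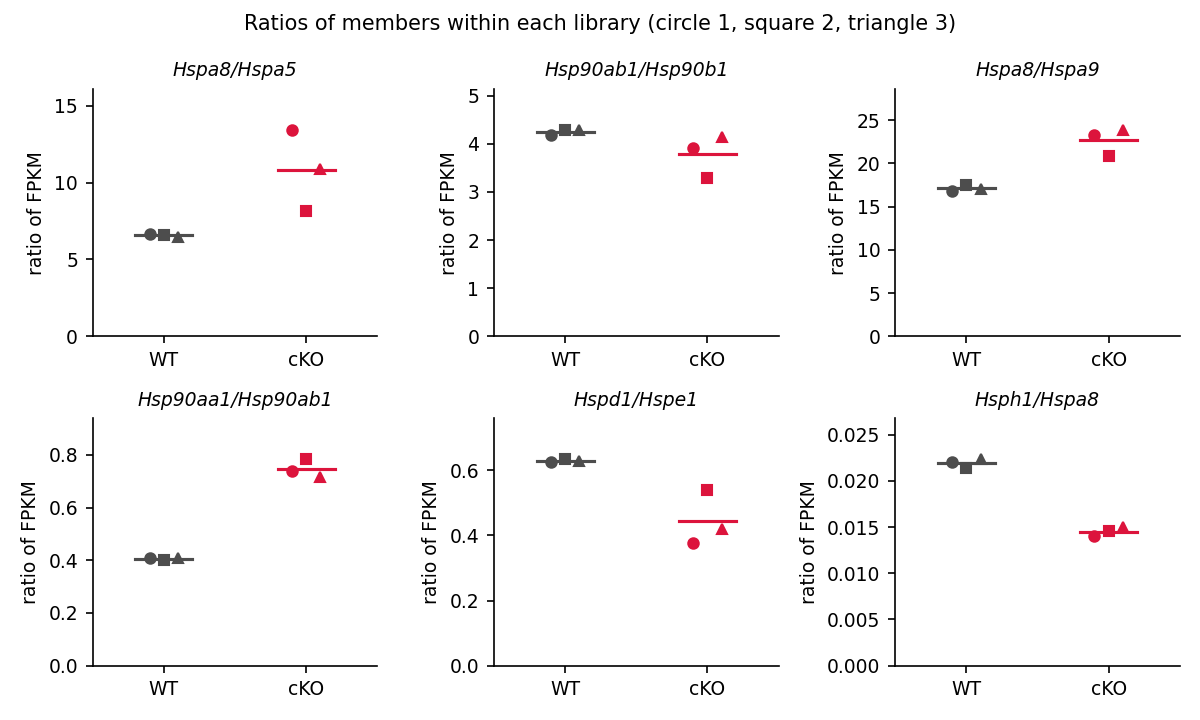
Ratio of the FPKM values of 2 genes within each library, for 6 pairs, with WT in grey, cKO in red, libraries 1, 2 and 3 as circles, squares and triangles, and the group mean as a bar; each axis starts at 0. The groups are separate in all 6 pairs, higher in cKO for Hspa8/Hspa5, Hspa8/Hspa9 and Hsp90aa1/Hsp90ab1 and lower for the other 3 pairs as deposited, with reversals for Hspa8/Hspa9 and Hsph1/Hspa8 after quantile normalization and for Hsp90ab1/Hsp90b1 after the GC content and length correction.

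Ratios within a library do not depend on the factor that scales the library as a whole. Hspa8 stood to Hspa5, the cytosolic to the ER HSP70, at 6.65, 6.62 and 6.49 in WT and at 13.4, 8.13 and 10.9 in cKO, a difference of 0.69 in the log2 ratio. The opposite held for the constitutive HSP90 only: Hsp90ab1 stood to Hsp90b1 at 4.18, 4.28 and 4.28 in WT and at 3.92, 3.30 and 4.15 in cKO, a difference of -0.17, which was 0.014 after the GC content and length correction. The inducible Hsp90aa1 had a larger log2 fold change (1.11) than Hsp90b1 (0.41), the same direction as Hspa8 to Hspa5. Hspa8 stood to Hspa9, the mitochondrial HSP70, at 16.7, 17.5 and 17.1 in WT and at 23.3, 20.8 and 23.8 in cKO, a difference of 0.40, which was -0.13 after quantile normalization. In all 6 ratios the groups were separate, with p = 0.1 in the exact two-sided permutation test, the smallest that 3 libraries against 3 allow, and 0.1 after Benjamini-Hochberg adjustment over the 6. The difference in the log2 ratio of Hsph1 to Hspa8 was -0.59 as deposited.

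The cKO libraries differed among themselves in which genes they raised most. The highest cKO value was in cKO 3 for 6 genes, in cKO 1 for Hspa8 and Hspa9, and in cKO 2 for Hspa5 and Hsp90b1. The lowest was in cKO 1 for Dnaja1, Hsp90aa1, Hspa5, Hsp90b1 and Hspd1 and in cKO 2 for the other 5, among which Hsp90ab1 had nearly the same value in cKO 1 and 2. The genes nearest to Hspa8 in profile were Rpl29, a ribosomal protein gene, Atp5g2, a subunit gene of the mitochondrial ATP synthase, and Psmc2, a proteasome subunit gene, at RMS distances of 0.025 to 0.030 over 6 libraries. Nearest to Hspa5 were Smc6, Pak1ip1 and Zfp595 (0.020 to 0.023), and nearest to Hspd1 were Trmt5, the J-domain gene Dnajb4 and Hnrnpa3 (0.026 to 0.029).

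**Figure D4:**
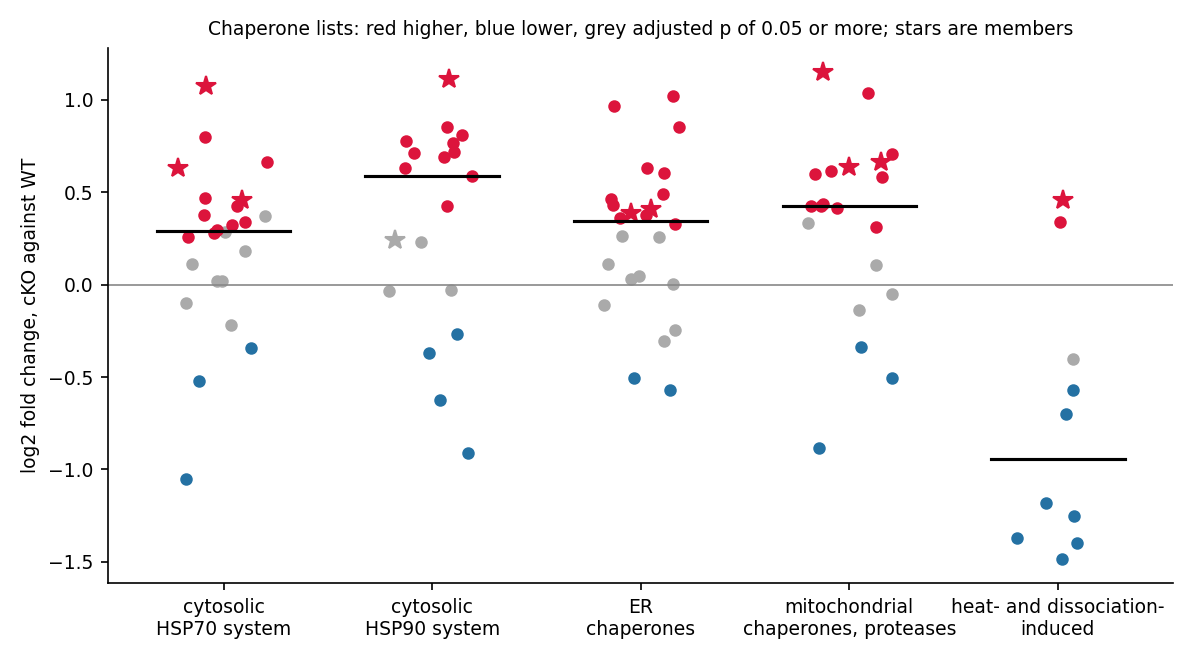
Log2 fold change, cKO against WT, of each tested gene in 5 lists, with genes called higher in red, lower in blue and not past an adjusted p of 0.05 in grey, the 10 chosen genes as stars, and the list median as a bar. The 4 chaperone lists have medians between 0.29 and 0.59, and the heat- and dissociation-induced list has a median of -0.94. With equal library totals the chaperone medians are -0.24 (HSP70), 0.044 (HSP90), -0.20 (ER) and -0.11 (mitochondria), against -0.45 over all genes tested.

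The wider chaperone systems of each compartment were counted in the same fit. Of 24 tested genes of the cytosolic HSP70 system, 13 were called higher, 3 lower and 8 neither, and outside the chosen genes the counts were 10, 3 and 8 of 21. The J-domain gene Dnajb4 (23.7 to 38.3 ± 4.54 FPKM, mean of 3 WT to mean ± SD of 3 cKO, adjusted p = 0.000837), the BAG domain gene Bag4 (6.77 to 9.76 ± 0.337, adjusted p = 0.000841) and Dnajb1 (66.9 to 84.9 ± 2.03, adjusted p = 0.00271) led those called higher in limma, and with equal library totals their log2 fold changes were 0.12, -0.030 and -0.22. Bag6, which guards tail-anchored proteins, fell from 64.7 to 30.9 ± 3.34 FPKM (log2 fold change -1.05, adjusted p = 0.000166, limma). Stub1, a ubiquitin ligase that works with HSP70, fell from 52.0 to 40.8 ± 1.53 FPKM and the HSP70 gene Hspa1l from 1.29 to 0.598 ± 0.167 FPKM. After the GC content and length correction the log2 fold change was -0.42 for Bag6 (adjusted p = 0.00229, limma) and -0.017 for Stub1, and after quantile normalization it was -0.19 for Hspa1l (adjusted p = 0.217, limma).

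The cofactors of HSP90 moved in both directions. Of 19 genes of the cytosolic HSP90 system, 11 were called higher, 4 lower and 4 neither, and outside the chosen pair 10, 4 and 3 of 17. Ahsa1, which activates the HSP90 ATPase, rose from 72.4 to 124 ± 8.29 FPKM (log2 fold change 0.77, adjusted p = 0.000264, limma). The cochaperones Ppid (37.4 to 58.6 ± 2.29 FPKM) and Ttc4 (24.8 to 37.8 ± 1.16 FPKM) rose too, but with equal library totals the log2 fold changes were 0.21 for Ahsa1, 0.083 for Ppid and 0.044 for Ttc4, and the calls of Ppid and Ttc4 were lost. Fkbp5, a cochaperone of steroid receptor complexes and a glucocorticoid target, fell from 94.97 to 50.1 ± 3.14 FPKM (log2 fold change -0.91, adjusted p = 0.000146, limma). Unc45a fell from 33.2 to 21.3 ± 2.74 FPKM and Cdc37l1 from 22.2 to 17.0 ± 1.64 FPKM, and the log2 fold change of Unc45a was -0.053 after the GC content and length correction.

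In the ER, 13 of 24 chaperone and folding genes were called higher, 2 lower and 9 neither, and outside Hspa5 and Hsp90b1 the counts were 11, 2 and 9 of 22. Manf, a secreted ER stress protein, rose from 45.7 to 83.8 ± 10.5 FPKM (log2 fold change 0.85, adjusted p = 0.000399, limma). The prolyl isomerase Ppib rose from 60.1 to 124 ± 19.3 FPKM and the disulfide isomerase Pdia6 from 50.3 to 77.4 ± 8.56 FPKM, and with equal library totals the log2 fold changes were 0.30 for Manf, 0.47 for Ppib and 0.054 for Pdia6, the last without a call. Of the 2 that fell, Hyou1, an exchange factor of BiP, went from 14.96 to 10.4 ± 2.05 FPKM (adjusted p = 0.00969, limma) and Dnajb9, a J-domain partner of BiP, from 29.98 to 20.5 ± 6.39 FPKM (adjusted p = 0.0269, limma). After the GC content and length correction the log2 fold change of Hyou1 was -0.25 (adjusted p = 0.167, limma), without a call, and that of Dnajb9 was -0.96. In the library-wise values, Dnajb9 was at 16.6, 27.8 and 17.0 FPKM in cKO 1, 2 and 3, so cKO 2 was near the WT values of 29.6 to 30.7 FPKM. When a single library was left out, between 1 and 5 genes of the list were called lower, the 5 without cKO 2.

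In the mitochondria, 13 of 20 chaperone and protease genes were called higher, 3 lower and 4 neither, and outside the chosen genes 10, 3 and 4 of 17. Hscb, a J-domain protein of iron-sulfur cluster assembly, rose from 16.4 to 34.8 ± 3.71 FPKM (log2 fold change 1.04, adjusted p = 0.000224, limma), and the change was 0.38 after the GC content and length correction. Trap1, the mitochondrial HSP90, rose from 35.7 to 48.4 ± 2.67 FPKM, and Grpel1, the exchange factor of Hspa9, from 19.5 to 30.5 ± 3.94 FPKM, with log2 fold changes of -0.12 and 0.074 when library totals were made equal. The 3 that fell were the protease genes Spg7 (30.6 to 16.2 ± 2.84 FPKM, adjusted p = 0.000643), Htra2 (10.8 to 7.37 ± 1.17, adjusted p = 0.00523) and Lonp1 (26.2 to 20.6 ± 2.45, adjusted p = 0.0167), all in limma. After the GC content and length correction the log2 fold changes were -0.61, -0.034 and 0.20 in this order, the last 2 without a call. Of the other proteases in the list, Clpp (0.44, adjusted p = 0.00813) and Yme1l1 (0.42, adjusted p = 0.00534) were called higher in limma, and Clpx and Afg3l2 were not called. The background for these list counts is the 35.8% of all genes called higher and the 29.8% called lower, and the share called higher was 54.2% in the cytosolic HSP70 and the ER lists, 57.9% in the HSP90 list and 65.0% in the mitochondrial list. With libraries scaled to the same total, 1, 3, 3 and 2 genes of the HSP70, HSP90, ER and mitochondrial lists were called higher and 13, 7, 10 and 6 lower. The background under that scaling was 8.74% of all genes called higher and 59.9% called lower. With a single WT sample, 0, 4, 3 and 2 were called higher and 1, 1, 0 and 1 lower.

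**Figure D5:**
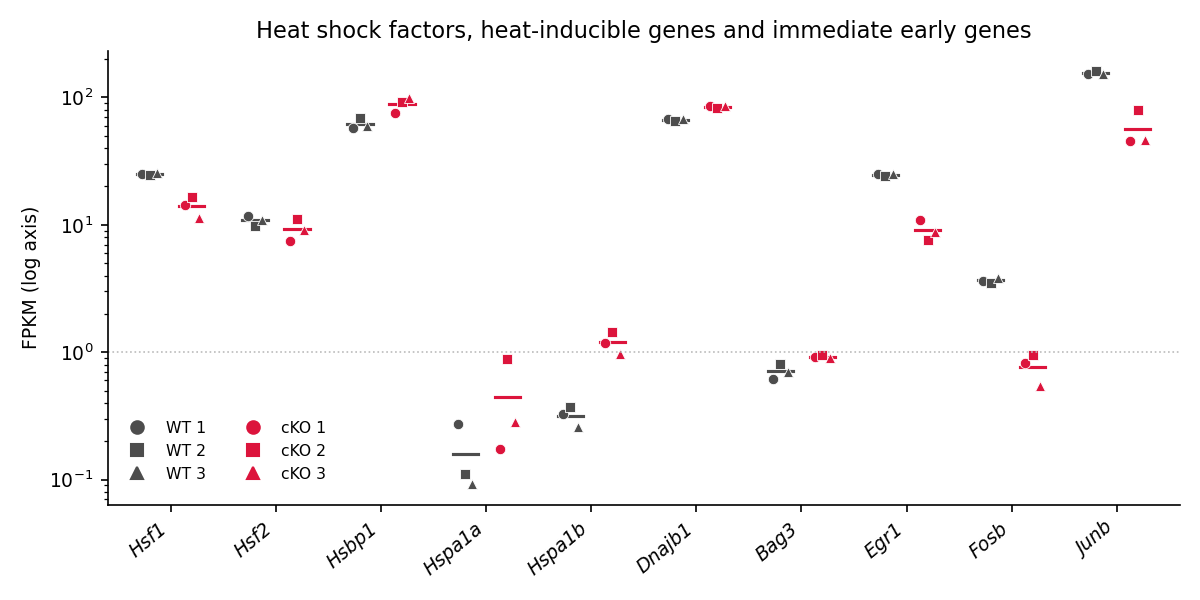
FPKM (log axis) of heat shock factors and their binding protein (Hsf1, Hsf2, Hsbp1), heat-inducible genes (Hspa1a, Hspa1b, Dnajb1, Bag3) and immediate early genes (Egr1, Fosb, Junb) in each library, with WT in grey, cKO in red, libraries 1, 2 and 3 as circles, squares and triangles, and the group mean as a bar. Hspa1a, Hspa1b and Bag3 lie near or below an FPKM of 1 (dotted line), and Hsf1 and the 3 immediate early genes lie lower in every cKO library.

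Hsf1, the main heat shock factor, was lower in cKO. It was at 24.9, 24.5 and 25.7 FPKM in WT and at 14.3, 16.5 and 11.3 FPKM in cKO, a log2 fold change of -0.81 (SE 0.122, adjusted p = 0.00124, limma) that kept its direction under every scaling run, with an adjusted p of 0.0529 with a single WT sample. Hsf2 was at 11.7, 9.87 and 10.9 FPKM in WT and at 7.48, 11.1 and 9.11 FPKM in cKO, and the groups overlapped. Hsbp1, whose product binds HSF1 and dampens it, rose from 57.4, 68.5 and 59.4 FPKM to 75.8, 91.2 and 98.7 FPKM (log2 fold change 0.51, adjusted p = 0.00655, limma), a change of -0.004 after the GC content and length correction and of -0.046 with the same FPKM total. Hsf3, Hsf4 and Hsf5 were under an FPKM of 1 in every library.

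The most heat-inducible genes were barely present. Hspa1a, a strictly inducible HSP70, was at 0.275, 0.111 and 0.0923 FPKM in WT and at 0.174, 0.885 and 0.285 FPKM in cKO, with overlapping groups. Hspa1b, its near-identical neighbour, was at 0.328, 0.368 and 0.257 FPKM in WT and at 1.18, 1.45 and 0.960 FPKM in cKO. It was above WT in each cKO library but too low for the main fit. Fragments of these 2 copies may have been split between them by the mapping. Bag3 was at 0.617, 0.805 and 0.702 FPKM in WT and at 0.915, 0.942 and 0.906 FPKM in cKO. It was likewise above WT in each cKO library and too low for the main fit. Of 9 small heat shock protein genes, 7 were under an FPKM of 1 in every library, 1 of these 7 at 0 throughout, and Hspb6, the only 1 tested, was at 2.17 to 2.41 FPKM in WT and 2.46 to 2.77 FPKM in cKO without passing the threshold.

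Genes that rise when cells are heated or taken out of tissue were counted too. Of 10 tested, 2 were called higher (Dnajb1 and Hsph1) and 7 lower, all 7 of them immediate early or early response genes, against 0 and 9 with equal library totals, 1 and 8 after quantile normalization and 0 and 4 with a single WT sample. Over all genes tested, 35.8% were called higher and 29.8% lower. These shares were 8.74% and 59.9% with equal library totals and 33.7% and 29.4% after quantile normalization. Fosb fell from 3.66 to 0.771 ± 0.214 FPKM, Egr1 from 24.7 to 9.04 ± 1.64 FPKM and Zfp36 from 96.8 to 64.9 ± 3.59 FPKM. Their adjusted p was 0.000146, 0.000191 and 0.000519 in limma. The summed level of the list was 534 to 542 FPKM in WT and 315 to 392 FPKM in cKO. Junb, also in this list, is among the genes that the paper found lower in cKO by quantitative RT-PCR. The paper relates those genes to T cell receptor (TCR) signal transduction and anti-apoptosis. The part of tissue handling in the levels of the 10 chaperone genes was not tested. Neither was the part of TCR signalling in the early response genes.

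Markers of cell types and states moved with the genotype as well. The background is again the 35.8% of all genes called higher and the 29.8% called lower. It was 8.74% and 59.9% with equal library totals and 33.7% and 29.4% after quantile normalization. All 8 proliferation markers were called higher, with a summed level of 478 to 485 FPKM in WT and 914 to 1054 FPKM in cKO, and Aurka, Ccnb1 and Cdk1 at 2.31, 2.54 and 2.20 times the WT mean. With equal library totals 6 were called higher and 1, Plk1, lower (-0.24, adjusted p = 0.0351, limma), and with a single WT sample 6 were called higher. Of 8 markers of mature single-positive T cells, 6 were called lower, with Ccr7 falling from 15.5 to 1.69 ± 0.711 FPKM, S1pr1 from 4.497 to 0.179 ± 0.0397 FPKM and Il7r from 5.92 to 1.17 ± 0.0959 FPKM. Of 10 markers of DP thymocytes, 6 were called higher, 2 lower and 2 neither, but 1 higher and 5 lower after quantile normalization, 2 and 4 with equal library totals and 0 and 0 with a single WT sample. In that list Cd4, Cd8a and Rag1 were at 486 to 487, 680 to 688 and 964 to 983 FPKM in WT. In bulk samples fewer cells of a type and less RNA per cell cannot be told apart, and the part of these shifts in the chaperone levels was not tested.

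Markers of other cell types were counted as well, beside the same shares over all genes tested. Of 8 erythroid markers, 7 were in the files and 3 were tested, and all 3 were higher in cKO, led by Hbb-b1 at 1.65 FPKM in WT and 13.2 ± 3.81 FPKM in cKO, and the summed level of the list was 2.10 to 2.97 FPKM in WT and 15.3 to 31.5 FPKM in cKO. Of 6 myeloid markers, 3 were tested and none was called, with a sum of 5.17 to 6.07 FPKM in WT and 5.73 to 6.29 FPKM in cKO. Of 5 B cell markers only Cd79b was tested and called higher (22.4 to 33.0 ± 6.58 FPKM, but -0.026 in log2 with equal library totals), while Cd79a, Ms4a1 and Pax5 were under an FPKM of 1 in every library. Of 4 NK cell markers 2 were tested and Gzma was called higher (55.2 to 90.3 ± 14.1 FPKM, but 0.14 in log2 with equal library totals and -0.054 after the GC content and length correction), while Ncr1 and Klrb1c were under an FPKM of 1 throughout. Of 5 thymic epithelial markers 1, Epcam, was tested and not called, and Krt5 and Foxn1 were at 0 in every library. The part of these cell types in the chaperone levels was not tested.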

How the data were processed

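Sorted DP thymocytes of 3 WT and 3 cKO libraries were compared, with groups and replicate numbers from the labels. The authors prepared poly(A)-enriched directional libraries, mapped the reads to mm10 with TopHat and computed FPKM values with Cufflinks, which they deposited as 1 value per symbol and library. Tool versions, annotation and strand setting are not given in the sources used here. FPKM values are not counts, so the count test of the study was not used.

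Median-of-ratios size factors (1.00 to 1.01) scaled the libraries. Genotypes were compared with limma 3.58.1 (R 4.3.3) on log2(FPKM + 1) of the 10326 genes that reached an FPKM of 1 in 3 libraries or more (lmFit, eBayes with a trend, Benjamini-Hochberg threshold 0.05). Such fold changes understate the change of low genes. The fit was tested on simulated data. Symbols were matched to GENCODE M21 directly (22110) or through RefSeq synonyms (640), and 433 were unmatched or ambiguous. Depth was estimated at 2611 single-transcript genes over 1000 nucleotides, with an assumed fragment length of 200. Intervals are at 95% and cover the spread between libraries. Ratios of 2 genes were tested by exact permutation with scipy 1.17.1. GC content and length were corrected with natural splines of 5 degrees of freedom. The other settings were a pseudocount of 0.1, no filter, an FPKM minimum of 5, no size factor, quantile normalization, the same FPKM total, eBayes without a trend, array weights, a replicate block, the WT libraries as 1 sample and each replicate left out.

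The members and lists were chosen with earlier results of these data known. The text names all 10 members, Nsrp1, every tested heat shock factor gene, the 3 called genes of each list with the smallest adjusted p, upward and downward, the 3 genes nearest in profile to Hspa8, Hspa5 and Hspd1, and marker genes at 0 or moving with the genotype. The library values of Dnajb9, Hspa1a, Hspa1b, Bag3, Hspb6, Cd4, Cd8a and Rag1 were named after their values were seen. So were Junb, the proteases Clpp, Yme1l1, Clpx and Afg3l2 and the remaining markers. Some marker genes are not reported here.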

Additional observations from a re-analysis of the deposited data

How the results depend on the processing

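The precision is set by 3 libraries a genotype, by WT libraries that vary far less than cKO libraries, and by FPKM totals that differ between genotypes. Among the 10 chaperones, 9 calls were upward and 0 downward. Scaling to the same FPKM total gave 3 higher and 1 lower, quantile normalization 1 lower, and the WT libraries as 1 sample 2 higher. Over the HSP70 and HSP90 lists of the cytosol together, 24 were called higher and 7 lower, against 4 and 20 with the same total and 4 and 2 with WT as 1 sample. In the ER list the calls were 3 higher and 10 lower with the same total, 3 and 0 with WT as 1 sample, and 1 lower each with no filter and with the GC content and length correction. In the mitochondrial list they were 2 and 6 with the same total, 2 and 1 with WT as 1 sample, and 1 lower with the GC content and length correction. Over all genes, 3693 higher and 3073 lower became 903 and 6182 with the same total and 744 and 901 with WT as 1 sample. With WT as 1 sample the fit has fewer samples and no longer includes the small spread between WT libraries. Which of these lowered the calls was not tested, and neither was the cause of the other changes.

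Log2 fold changes that reversed were those of Hsph1 (-0.076), Hspa5 (-0.17), Hsp90b1 (-0.15) and Hsp90ab1 (-0.32) with the same total and of Hsp90ab1 (-0.38) after quantile normalization. The log2 ratio of Hsp90ab1 to Hsp90b1 reversed to 0.014 with the GC content and length correction, and after quantile normalization Hspa8 to Hspa9 reversed to -0.13 and Hsph1 to Hspa8 to 0.11. Leaving out each replicate gave 8 to 10 of the 10 genes called higher and 0 lower, and 1 to 5 genes of the ER list called lower.

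The replicate block gave 9 of the 10 genes higher and 0 lower and 3513 higher and 2954 lower over all genes. Deviations of same-numbered libraries correlated at -0.022, 0.039 and 0.031, so the numbers were not taken to pair libraries.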
